A study of Mus musculus with 24 samples.

Results

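The 10 genes described here encode transcription factors that set the fate of myeloid blood progenitors: Spi1, Runx1, Cebpa, Cebpb, Cebpe, Gfi1, Irf8, Klf4, Id2 and Batf3. They were taken by gene symbol alone from the 23991 symbols listed in every library, a rule that uses no measured value. RNA was sequenced from mouse bone marrow (C57BL/6) sorted into GMP, the granulocyte-monocyte progenitors, and LSK (Lin-Sca1+cKit+), the fraction that holds the stem and multipotent progenitor cells. Each population was taken from 4 genotypes with 3 libraries per group, 24 libraries in all. IRE1_KO_ITD mice are Ern1(fl/fl)-VavCre-Flt3-ITD and carry both changes. ITD mice carry Flt3-ITD, an internal tandem duplication that keeps the cytokine receptor FLT3 active. IRE1_KO mice are Ern1(fl/fl)-VavCre, and lack the Flt3-ITD allele. WT mice carry neither. Ern1 encodes IRE1, a stress sensor of the endoplasmic reticulum that splices Xbp1 mRNA. VavCre acts across blood cells, so the deletion is not limited to the sorted cells. The labels used here give no age, no zygosity of Flt3-ITD and no statement on pooling, and they number the libraries without saying that each came from its own mouse. The p-values therefore measure the spread between these libraries, which may be technical.

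PU.1, the product of Spi1, opens myeloid enhancers and drives genes for growth factor receptors, and RUNX1 acts with the subunit CBFB upstream of it in the blood lineage. The C/EBP family then sets the granulocyte programme: C/EBPα (Cebpa) takes progenitors to the GMP stage, C/EBPβ (Cebpb) serves granulocyte output under demand, and C/EBPε (Cebpe) switches on the late neutrophil granule genes. GFI1 is a repressor that favours granulocytes over monocytes. IRF8 and KLF4 favour monocytes, and IRF8 works with BATF3 and ID2 in cDC1, the conventional dendritic cells that cross-present antigen. ID2 binds E proteins such as TCF3 and TCF4 and keeps them off DNA.

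Levels are given in FPKM, the authors' fragment count scaled for transcript length and library size, so they can be set side by side between genes. Read totals are not held by the files. Between 10436 and 11471 genes reached 1 FPKM in a library, and the relative depth read from the steps between low values ran from 0.918 to 1.29. The sort was visible in its markers: Ly6a, which encodes Sca-1, spanned 13.9 to 38.7 FPKM in the GMP libraries and 62.1 to 210.0 FPKM in the LSK libraries, and Mpo, a primary granule gene, spanned 7265 to 10157 FPKM in GMP and 485 to 1788 FPKM in LSK. The Ern1 level did not show the deletion. It was 19.3, 24.5 and 17.9 FPKM in IRE1_KO GMP, against 10.4, 9.20 and 7.58 FPKM in WT GMP, and a value summed over the whole gene cannot check the loss of part of it. Genotypes are therefore used as labelled. Xist and Y-linked genes gave 3 females in each ITD group, 2 females and 1 male in each IRE1_KO group, and 1 female and 2 males in each IRE1_KO_ITD and each WT group. The 3 IRE1_KO LSK libraries carry the tag 1ng in their names, and their library handling and their genotype cannot be told apart. No GMP library carries the tag, so handling and population cannot be told apart within IRE1_KO either. The same limit holds for the IRE1_KO effect in GMP minus LSK. In the 3 tagged libraries Mir6236 took 0.175 to 0.904% of the summed FPKM, and in the LSK libraries of the remaining genotypes it took 4.41 to 6.24%.

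The 10 genes differed widely in level. In WT GMP the mean was 151 FPKM for Spi1, 112 for Irf8, 73.3 for Cebpe and 40.3 for Id2, then 8.66 for Runx1, 7.72 for Gfi1, 6.60 for Cebpa, 3.61 for Klf4, 2.95 for Cebpb and 0.320 for Batf3 (n = 3). In WT LSK Spi1 again led, at 99.0 FPKM, followed by Irf8 at 31.8, Id2 at 27.5, Klf4 at 14.2 and Runx1 at 12.9, while Cebpe, Gfi1, Cebpb and Cebpa lay between 2.13 and 4.96 FPKM. Batf3 was near the bottom of the scale outside the ITD libraries. It reached 1 FPKM in 4 of 12 GMP libraries and in 2 of 12 LSK libraries, so it was tested in GMP, where the ITD libraries carried it past the filter of 1 FPKM in at least 3 libraries, and not in LSK.

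**Figure D1:**
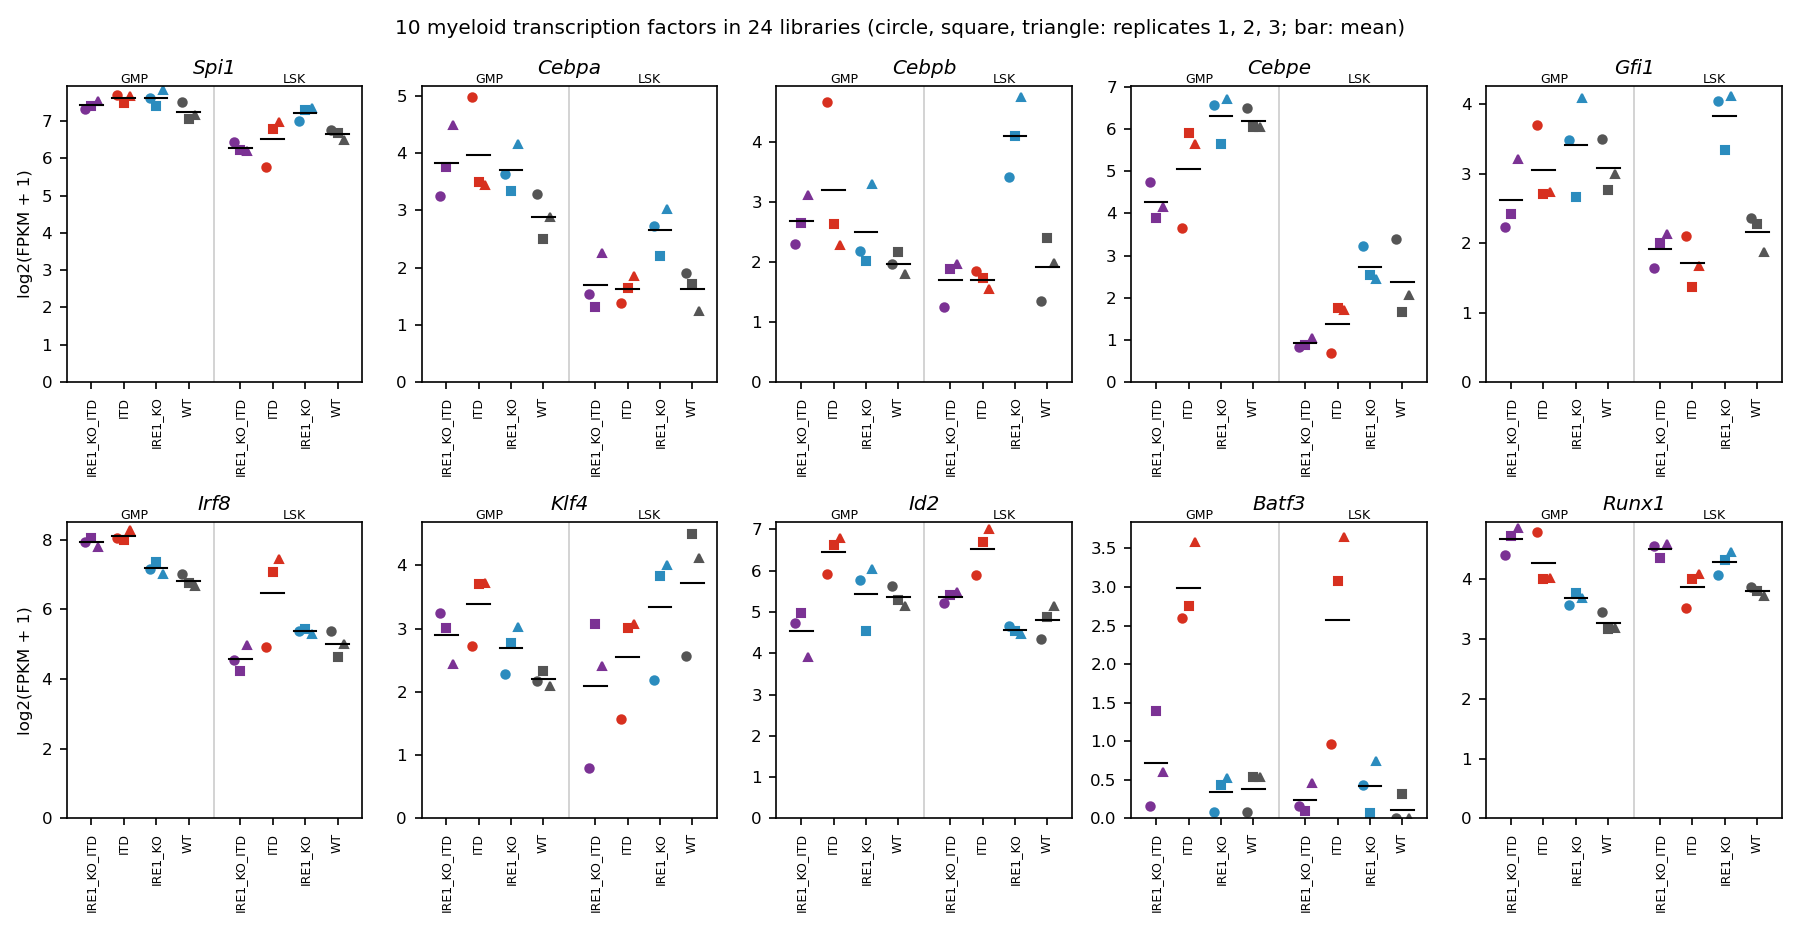
Level of the 10 transcription factors as log2(FPKM + 1) in each of the 24 libraries, by population and genotype; each point is 1 library, its shape gives the replicate number, and the bar is the mean of the log2 values. In FPKM, Batf3 stands at 0.955 to 11.6 FPKM in the ITD libraries of both populations, and Irf8 is above 100 FPKM in all GMP libraries.

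Changes were tested with limma on log2(FPKM + 1), in which low genes show smaller folds than their FPKM ratio, and a gene was called at a Benjamini-Hochberg adjusted p under 0.05 over all tested genes. The comparison of ITD with WT asks what the Flt3-ITD allele does alone. In GMP it called 4 of the 10 genes, all of them higher in ITD (Batf3, Irf8, Klf4 and Runx1), where 10.7% of all tested genes were called and 7.37% were called higher. Batf3 had entered the GMP test through the ITD libraries, so its call is a description, and 3 of the other 9 genes were called. In LSK it called 1 of the 9 tested genes, Id2, which was higher in ITD, where 22.2% of all genes were called and 14.9% were called higher, so the members' share lay below the background there. The comparison of IRE1_KO with WT asks what loss of IRE1 does alone. In LSK it called 4 of 9 genes, all higher in IRE1_KO (Cebpb, Gfi1, Cebpa and Runx1), against 23.7% of all genes called and 21% called higher. In GMP it called 0 of 10, against 0.533% of all genes. At an unadjusted limma p under 0.05 there were 2 of the 10 (Irf8 and Spi1). The share of all genes at that threshold is not given here, so this count is a description only.

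Loss of IRE1 within the Flt3-ITD background is read from IRE1_KO_ITD against ITD. It called 3 of 9 genes in LSK, with Irf8 and Id2 lower and Runx1 higher in IRE1_KO_ITD, where 20.2% of all genes were called. In GMP it called 2 of 10, Batf3 and Id2, both lower in IRE1_KO_ITD, where 1.83% of all genes were called and 0.916% were called lower; without Batf3 the count is 1 of 9. IRE1_KO_ITD against IRE1_KO, the effect of Flt3-ITD in cells labelled as lacking IRE1, called 6 of 9 in LSK, where 31.3% of all genes were called, and 3 of 10 in GMP, where 13% were. The test of the difference between the 2 Flt3-ITD effects called 2 of 9 in LSK (Cebpb and Gfi1), against 6.94% of all genes. In GMP it called 0 of 10 and 0% of all 11249 tested genes, although 5 of the 10 genes and 1468 of all genes had an unadjusted p under 0.05. These comparisons share libraries: the ITD libraries enter both ITD against WT and IRE1_KO_ITD against ITD, and the IRE1_KO libraries enter both IRE1_KO against WT and IRE1_KO_ITD against IRE1_KO, so a high value in one of these groups gives opposite signs in its pair of comparisons.

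**Figure D2:**
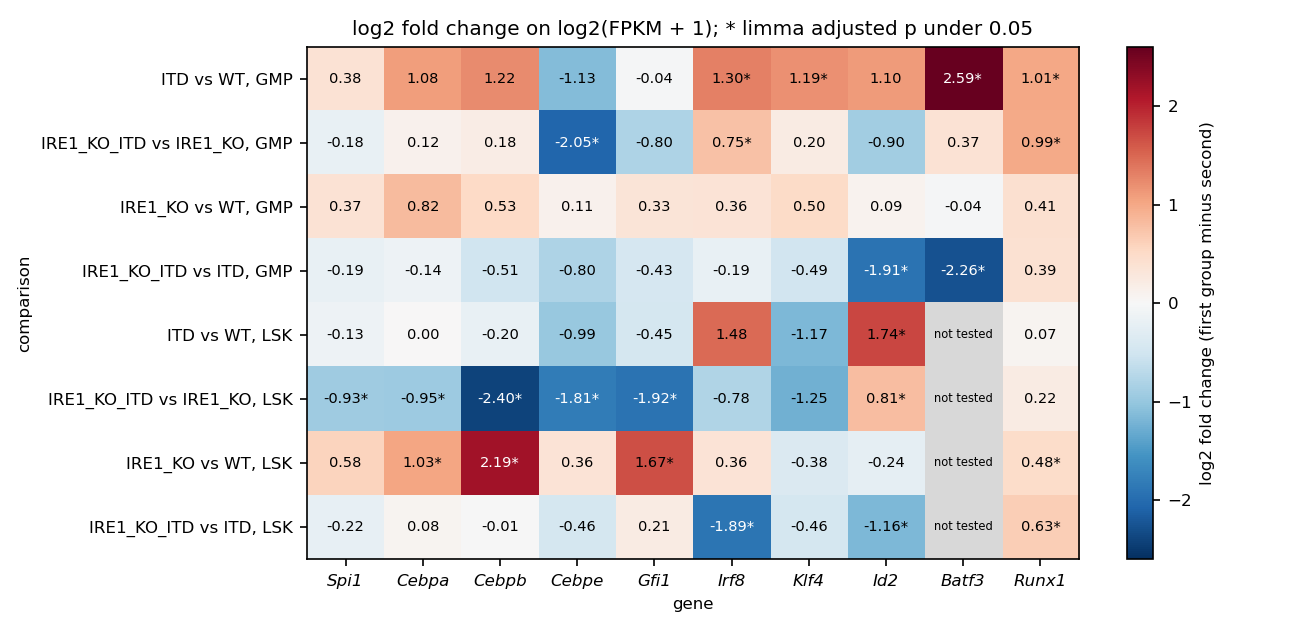
Log2 fold change of each factor on the log2(FPKM + 1) scale in the 8 genotype comparisons (first-named genotype minus second), from limma; an asterisk marks an adjusted p under 0.05 and grey marks a gene not tested. Batf3 in GMP stands at 2.59 for ITD against WT and at -2.26 for IRE1_KO_ITD against ITD.

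Between the populations, Cebpe, Irf8 and Cebpa were called higher in GMP than in LSK in all 4 genotypes. The Cebpa calls in IRE1_KO_ITD and ITD held in each alternative, and the Cebpa call in IRE1_KO ended in 5 of 13 (largest limma adjusted p 0.127). Among WT libraries 7 of the 10 genes were called, 5 higher in GMP and 2 lower, where 50.3% of all genes were called, 19% higher and 31.3% lower. Cebpe had 89.9, 65.2 and 64.7 FPKM in WT GMP, against 9.52, 2.15 and 3.21 FPKM in WT LSK, with no overlap. Its log2 fold change of 3.82 ± 0.51 (SE, n = 3 and 3, limma adjusted p = 4.41e-06) was the largest of the 10. Irf8 was higher in WT GMP by 1.81 ± 0.40 (limma adjusted p = 0.000958), Cebpa by 1.27 ± 0.39 (0.0107), Gfi1 by 0.92 ± 0.35 (0.037) and Spi1 by 0.60 ± 0.22 (0.0266). Klf4 had 3.53, 4.03 and 3.26 FPKM in WT GMP, against 4.96, 21.5 and 16.2 FPKM in WT LSK, and was lower in GMP by a log2 fold change of -1.52 ± 0.59 (limma adjusted p = 0.0382). Runx1 was lower at -0.53 ± 0.19 (0.0231). Only the Cebpe and Irf8 calls of these 7 held without each WT library in turn. The call on Cebpa ended without WT GMP replicate 1 or WT LSK replicate 3 (largest limma adjusted p 0.0518), on Gfi1 without WT GMP replicate 1 or 3 or WT LSK replicate 2 or 3 (0.146), on Klf4 without any of these libraries but WT LSK replicate 1 (0.166), on Runx1 without WT GMP replicate 2 or 3 or WT LSK replicate 1 or 2 (0.074), and on Spi1 without WT GMP replicate 1 or WT LSK replicate 2 or 3 (0.116).

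Cebpb was called in opposite directions within 2 genotypes. It stood at 2.90, 3.47 and 2.49 FPKM in WT GMP and at 1.55, 4.30 and 2.95 FPKM in WT LSK, which overlap. It was called higher in GMP among ITD libraries (1.49 ± 0.49, limma adjusted p = 0.0208) and lower in GMP among IRE1_KO libraries (-1.60 ± 0.49, limma adjusted p = 0.0102). The IRE1_KO LSK libraries carry the 1ng tag and the GMP libraries do not. Population and library handling cannot be told apart in any change or count within IRE1_KO. The ITD change was 0.75 (limma adjusted p = 0.135) without ITD GMP replicate 1. Its call also ended without ITD LSK replicate 3 (0.0564) and with only the ITD libraries in the fit (0.110). The IRE1_KO call ended without IRE1_KO LSK replicate 3 (0.0613). Irf8 differed by 3.34 ± 0.40 in IRE1_KO_ITD (limma adjusted p = 2.18e-06), 1.63 ± 0.40 in ITD, 1.81 ± 0.40 in IRE1_KO and 1.81 ± 0.40 in WT. The Irf8 difference in ITD was 0.86 (limma adjusted p = 0.00362) without ITD LSK replicate 1, and its call ended with only the ITD libraries in the fit (0.0971). Without that replicate the Flt3-ITD effect on Irf8 was smaller in GMP than in LSK by a called -0.95 (limma adjusted p = 0.0306). Counts of called genes were 4 of 10 among IRE1_KO_ITD libraries, all higher in GMP, where 40.7% of all genes were called and 14.2% were called higher. They were 6 of 10 among ITD libraries, again all higher in GMP, where 40.5% were called and 13.7% were called higher, and 6 of 10 among IRE1_KO, where 50.8% were. The median of all genes lay at -0.113 to -0.217 in these 4 comparisons, and at -0.0671 to 0.0481 after quantile normalization. Tested directly, the Flt3-ITD effect differed between GMP and LSK for 1 of 10 genes, Runx1, where 13.6% of all genes were called. The IRE1_KO effect differed for 0 of 10, where 5.11% were called. At an unadjusted limma p under 0.05 there were 2 of the 10 (Gfi1 and Cebpb), again a description without the share of all genes at that threshold.

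**Figure D3:**
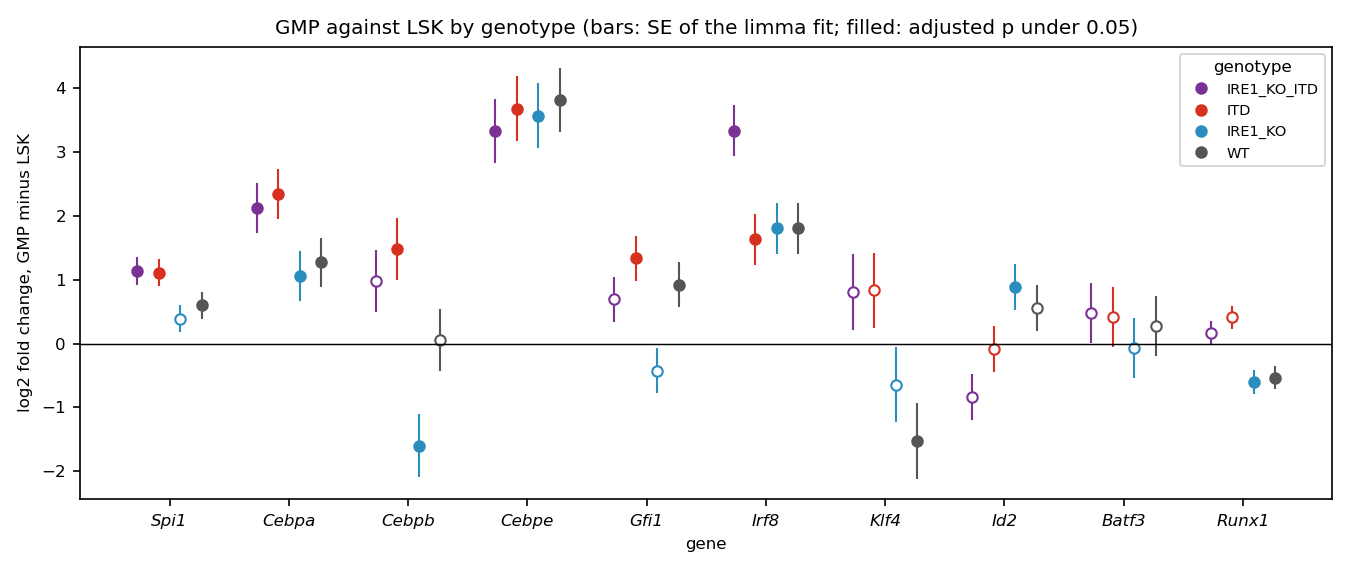
GMP minus LSK log2 fold change of each factor on the log2(FPKM + 1) scale within each genotype, with its standard error (n = 3 libraries a group); filled points have a limma adjusted p under 0.05. Cebpe lies between 3.34 and 3.82 in the 4 genotypes, and Cebpb lies at 1.49 in ITD and -1.60 in IRE1_KO. The IRE1_KO LSK libraries carry the 1ng tag, and no GMP library does.

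Spi1 (chr2:91082390-91115756, plus strand, mm10), which encodes PU.1, spanned 53.0 to 227 FPKM over all libraries. In LSK it had 85.3, 73.6 and 72.2 FPKM in IRE1_KO_ITD, 53.0, 110.0 and 123.9 in ITD, 127.7, 157.0 and 160.8 in IRE1_KO, and 107.5, 101.0 and 88.6 in WT. IRE1_KO lay above both IRE1_KO_ITD and WT without overlap, and ITD replicate 1 was the lowest library of all. Spi1 was lower in IRE1_KO_ITD than in IRE1_KO LSK at -0.93 ± 0.25 (limma adjusted p = 0.0173), a call that ended without IRE1_KO_ITD LSK replicate 3 (0.0531) or IRE1_KO LSK replicate 2 (0.055) or 3 (0.0531). IRE1_KO_ITD against ITD LSK gave -0.22 ± 0.25 (limma adjusted p = 0.586), and -0.60 (limma adjusted p = 0.0107) without ITD LSK replicate 1. In GMP the group means ran only from 151 to 196 FPKM, and no genotype comparison was called.

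Runx1 (chr16:92601466-92826149, minus strand), the founding factor of blood stem cells, averaged highest where both alleles were changed. In GMP it had 20.2, 25.4 and 28.0 FPKM in IRE1_KO_ITD, 26.6, 15.1 and 15.3 in ITD, 10.9, 12.6 and 11.9 in IRE1_KO, and 9.90, 7.99 and 8.09 in WT. All Flt3-ITD libraries thus lay above all libraries without it. ITD exceeded WT GMP by a log2 fold change of 1.01 ± 0.20 (limma adjusted p = 0.0137), and IRE1_KO_ITD exceeded IRE1_KO GMP by 0.99 ± 0.20 (limma adjusted p = 0.0113). The first call held without ITD GMP replicate 1, at 0.75 (limma adjusted p = 0.0182), and ended without WT GMP replicate 2 (0.0581) or 3 (0.0603). It also ended with only the compared libraries in the fit (0.0621) and with sex in the fit (0.0909), ITD being all female. In LSK the values were 22.6, 19.3 and 22.9 FPKM in IRE1_KO_ITD, 10.4, 14.9 and 16.0 in ITD, 15.8, 19.0 and 20.9 in IRE1_KO, and 13.7, 12.9 and 12.2 in WT. IRE1_KO_ITD lay above ITD, and IRE1_KO above WT, without overlap.

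The LSK changes of Runx1 were 0.63 ± 0.15 for IRE1_KO_ITD against ITD (limma adjusted p = 0.0167) and 0.48 ± 0.15 for IRE1_KO against WT (limma adjusted p = 0.043). The first ended without IRE1_KO_ITD LSK replicate 1 (0.0543) or 3 (0.0637). The second ended without IRE1_KO LSK replicate 2 (0.116) or 3 (0.142) or any WT LSK library (0.0687 to 0.109), and fell to 0.16 (limma adjusted p = 0.456) after quantile normalization. ITD against WT LSK gave only 0.07 ± 0.15 for Runx1, and the Flt3-ITD effect was larger in GMP than in LSK by 0.94 ± 0.26 (limma adjusted p = 0.0255). That difference missed the threshold without WT GMP replicate 2 (0.0605) or 3 (0.0598), WT LSK replicate 2 (0.0577) or ITD LSK replicate 1 (0.0577). It also missed it with the replicate number as a block (0.0592) and with only the compared libraries in the fit (0.0790). Cbfb, whose product is the DNA-binding partner of RUNX1, had 35.2, 42.4 and 55.2 FPKM in IRE1_KO_ITD LSK and 20.6, 22.7 and 25.5 FPKM in ITD LSK. It had 60.8, 69.0 and 66.8 FPKM in IRE1_KO LSK and 19.3, 21.3 and 19.1 FPKM in WT LSK. Cbfb thus separated without overlap in both comparisons, at 0.90 ± 0.14 (limma adjusted p = 0.00306) for IRE1_KO_ITD against ITD and 1.67 ± 0.14 (limma adjusted p = 1.76e-05) for IRE1_KO against WT.

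Cebpb, Gfi1 and Cebpa had their highest LSK levels in the IRE1_KO libraries, the group with the 1ng tag. Cebpb (chr2:167688915-167690418, plus strand, a gene of 1 exon) had 1.38, 2.71 and 2.90 FPKM in IRE1_KO_ITD LSK, 2.59, 2.33 and 1.93 in ITD, 9.75, 16.3 and 26.2 in IRE1_KO, and 1.55, 4.30 and 2.95 in WT. Every IRE1_KO library lay above every other LSK library, with a mean 5.93 times that of WT. The log2 fold change against WT was 2.19 ± 0.34 (limma adjusted p = 0.000745), and IRE1_KO_ITD lay below IRE1_KO at -2.40 ± 0.34 (limma adjusted p = 0.000459). Gfi1 (chr5:107716657-107726036, minus strand) had 2.12, 2.99 and 3.38 FPKM in IRE1_KO_ITD LSK, 3.29, 1.59 and 2.18 in ITD, 15.6, 9.16 and 16.5 in IRE1_KO, and 4.14, 3.84 and 2.65 in WT. It too separated completely, at 1.67 ± 0.25 for IRE1_KO against WT (limma adjusted p = 0.000517) and -1.92 ± 0.25 for IRE1_KO_ITD against IRE1_KO (limma adjusted p = 0.000249). These 4 calls held without each library in turn, and under both other scalings the IRE1_KO against WT changes were 1.98 and 2.02 for Cebpb and 1.43 and 1.50 for Gfi1. The median of all genes in that comparison lay at 0.139, and at -0.0763 after quantile normalization.

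Cebpa (chr7:35119293-35121928, plus strand) had 1.90, 1.49 and 3.77 FPKM in IRE1_KO_ITD LSK, 1.62, 2.12 and 2.59 in ITD, 5.64, 3.61 and 7.11 in IRE1_KO, and 2.76, 2.28 and 1.35 in WT. IRE1_KO lay above WT without overlap, but its lowest library was below the highest of IRE1_KO_ITD. The change was 1.03 ± 0.28 against WT (limma adjusted p = 0.0213), and -0.95 ± 0.28 for IRE1_KO_ITD against IRE1_KO (limma adjusted p = 0.0256). The first ended without IRE1_KO LSK replicate 1 (0.0534) or 3 (0.083) or WT LSK replicate 2 (0.0508) or 3 (0.0698), and the second without IRE1_KO_ITD LSK replicate 1 (0.0837) or 2 (0.0904) or IRE1_KO LSK replicate 1 (0.0672) or 3 (0.0895). The Flt3-ITD effect on Cebpb differed between the Ern1 genotypes in LSK by -2.20 ± 0.49 (limma adjusted p = 0.0251), and that on Gfi1 by -1.46 ± 0.35 (limma adjusted p = 0.0346). Both missed the threshold when single libraries were left out: Cebpb without IRE1_KO_ITD replicate 1 or 2, ITD replicate 2 or 3, IRE1_KO replicate 2 or WT replicate 3 (0.0501 to 0.0608), and Gfi1 without IRE1_KO_ITD replicate 1 or 2, ITD replicate 3, IRE1_KO replicate 1 or 3 or WT replicate 2 or 3 (0.0606 to 0.0821). With sex in the fit both missed it as well (limma adjusted p = 0.142 for Cebpb and 0.169 for Gfi1).

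In GMP, where no library has the tag, neither Cebpb, Gfi1 nor Cebpa was called in any genotype comparison. Cebpb had 3.56, 3.06 and 8.86 FPKM in IRE1_KO GMP, against 2.90, 3.47 and 2.49 FPKM in WT GMP, and Gfi1 had 10.3, 5.32 and 16.1 FPKM in IRE1_KO GMP, against 10.3, 5.81 and 7.02 FPKM in WT GMP. Both pairs of groups overlap. One library stood apart: ITD GMP replicate 1 held 24.5 FPKM of Cebpb and 30.7 FPKM of Cebpa, against 5.21 and 3.90 FPKM of Cebpb and 10.3 and 9.83 FPKM of Cebpa in ITD replicates 2 and 3. ITD against WT GMP gave 1.08 ± 0.44 for Cebpa and 1.22 ± 0.55 for Cebpb (limma adjusted p = 0.131 and 0.166), and 0.58 and 0.49 without that library. Cebpb overlaps Tmem189 on the opposite strand, Gfi1, Cebpa and Runx1 each overlap an annotated gene on the other strand, and Irf8 lies within the longer protein-coding model Gm20388 on its own strand. The sources used here do not settle whether reads were counted by strand, so reads from the stretches shared by opposite strands cannot be assigned to 1 gene. Counting by strand would not separate Irf8 from Gm20388. Of these overlapping genes only Tmem189 is among the symbols listed in the libraries.

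Other transcription factors of the myeloid set changed in IRE1_KO LSK about as often as genes at large. Of 40 tested partner factors, 10 rose and 0 fell against WT, where 23.7% of all genes were called and 21% were called higher, and the list's median log2 fold change was 0.23, beside 0.14 for all genes. They included Cbfb, Lmo2 (1.01 ± 0.14, limma adjusted p = 0.000272), a bridging protein of stem cell complexes, and Cebpg (0.99 ± 0.14, limma adjusted p = 0.000274), a C/EBP partner with no activation domain. Cebpd, another C/EBP factor, was lower in IRE1_KO_ITD than in IRE1_KO LSK at -2.35 ± 0.29 (limma adjusted p = 0.00017), one of 12 of the 40 partner factors that fell in that comparison, where 1 rose and 31.3% of all genes were called. No primary or secondary granule list followed Cebpb, Gfi1 and Cebpa in IRE1_KO against WT LSK: 1 of 14 primary granule genes and 0 of 15 secondary granule genes were called. Nor was any of the 9 tested growth factor receptors, a group of PU.1 and C/EBP targets, called there.

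The promoter sequences were searched in the 250 bases before each start listed by RefSeq (GRCm38.p6), 11 windows for 8 of the 10 genes. Spi1 and Cebpe were not searched. A C/EBP motif, TTGCNNAA on either strand, stood in 1 of the 11 windows, that of Gfi1, and in 9.56% of all 32851 windows in the table. The site lies 135 bases before a Gfi1 start listed by RefSeq, and inside the gene as GENCODE maps it (chr5:107716657-107726036). It is shown because Cebpb and Gfi1 had their highest LSK levels in the same 3 libraries. Capitals mark the motif, on the minus strand of chr5:107725931-107725958.
Gfi1: gaaggtaggtTTGCTGAActgctgtgcc
A match of letters is not evidence of binding. The PU.1 motif GAGGAA stood in 2 of the 11 windows (Batf3 and Runx1) and in 23.3% of all windows, and RUNX (TGTGGT) and AP-1 (TGANTCA) motifs stood in 0 of 11, against 14.0% and 6.75% of all windows.

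Cebpe (chr14:54710360-54712174, minus strand), the driver of late granulocyte maturation, averaged lowest in IRE1_KO_ITD in both populations. In GMP it had 25.6, 13.7 and 16.9 FPKM in IRE1_KO_ITD, 11.5, 58.8 and 49.0 in ITD, 94.5, 48.7 and 104.3 in IRE1_KO, and 89.9, 65.2 and 64.7 in WT. IRE1_KO_ITD lay below IRE1_KO and WT without overlap, and ITD lay below WT without overlap but held the lowest GMP library, replicate 1. IRE1_KO_ITD against IRE1_KO GMP was -2.05 ± 0.52 (limma adjusted p = 0.0297), a call that ended without IRE1_KO_ITD replicate 2 (0.101) or 3 (0.0681) or IRE1_KO replicate 1 (0.0913) or 3 (0.104). ITD against WT GMP was -1.13 ± 0.52 (limma adjusted p = 0.175), and -0.42 without ITD GMP replicate 1. IRE1_KO_ITD against ITD GMP was -0.80 ± 0.52 (limma adjusted p = 0.443), and -1.51 (limma adjusted p = 0.0300) without that library. In LSK Cebpe had 0.786, 0.841 and 1.07 FPKM in IRE1_KO_ITD and 8.29, 4.79 and 4.48 FPKM in IRE1_KO, a difference of -1.81 ± 0.42 (limma adjusted p = 0.00788) that held without each library in turn.

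The secondary granule genes, which C/EBPε is known to drive, varied with Cebpe from library to library. Their summed level in GMP was 18196, 7464 and 2145 FPKM in IRE1_KO_ITD, 2938, 99352 and 40764 in ITD, 57629, 18977 and 89412 in IRE1_KO, and 66124, 48713 and 44810 in WT. ITD replicate 1, low in Cebpe, was also low in this sum. In LSK the sums were 341, 759 and 446 FPKM in IRE1_KO_ITD, 1175, 2831 and 1504 in ITD, 12757, 6161 and 5341 in IRE1_KO, and 10919, 5571 and 5595 in WT, so the Flt3-ITD groups lay below the others without overlap. All 15 secondary granule genes fell in IRE1_KO_ITD against IRE1_KO LSK, with a median log2 fold change of -3.49, beside -0.04 for all genes, of which 31.3% were called. The gelatinase gene Mmp9 fell by 3.75 ± 0.31 and the neutrophil surface gene Cd177 by 3.24 there. In IRE1_KO_ITD against ITD LSK, where 20.2% of all genes were called, 8 of 15 fell and 0 rose, among them the antimicrobial gene Camp (-2.50 ± 0.58, limma adjusted p = 0.0141), and in ITD against WT LSK, where 22.2% were called, 12 of 15 fell and 0 rose. In GMP 4 of 15 fell in IRE1_KO_ITD against IRE1_KO, where 13% of all genes were called, Mmp9 at -2.96 ± 0.63 (limma adjusted p = 0.0133). In ITD against WT GMP 0 of 15 were called, where 10.7% of all genes were. In IRE1_KO_ITD against ITD GMP 0 of 15 were called, where only 1.83% of all genes were. These genes are abundant in mature neutrophils, and in sorted bulk RNA fewer cells of a type and less RNA per cell cannot be told apart.

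Irf8 (chr8:120736358-120756694, plus strand), the factor that directs progenitors to monocytes and dendritic cells, separated the GMP libraries by the Flt3-ITD allele. It had 243, 265 and 221 FPKM in IRE1_KO_ITD GMP, 265, 255 and 312 in ITD, 141, 163 and 128 in IRE1_KO, and 128, 106 and 101 in WT. Every Flt3-ITD library lay above every library without the allele. ITD exceeded WT GMP by 1.30 ± 0.13 (limma adjusted p = 0.000399) and IRE1_KO_ITD exceeded IRE1_KO GMP by 0.75 ± 0.13 (limma adjusted p = 0.00433), and both calls held in each alternative. The difference between these effects, -0.55, missed the threshold (limma adjusted p = 0.289). IRE1_KO_ITD against ITD GMP was -0.19 ± 0.13 (limma adjusted p = 0.459).

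In LSK the Irf8 level turned on single libraries of the ITD group. It had 22.5, 17.9 and 30.2 FPKM in IRE1_KO_ITD LSK, 29.5, 134.1 and 171.5 in ITD, 40.3, 42.0 and 38.4 in IRE1_KO, and 40.6, 23.8 and 31.0 in WT. ITD replicates 2 and 3 were far above all other LSK libraries, while replicate 1 lay within the WT range. ITD against WT LSK was 1.48 ± 0.51 (limma adjusted p = 0.061), and 2.25 (limma adjusted p = 0.000469) without ITD LSK replicate 1. IRE1_KO_ITD against ITD LSK was -1.89 ± 0.51 (limma adjusted p = 0.0258), and -2.67 without that library. With it in, the call ended without any 1 of the other 5 libraries compared (0.0519 to 0.0931), and with sex in the fit (0.0975). The difference between the Flt3-ITD effects in LSK was -2.26 ± 0.73 (limma adjusted p = 0.0872), and -3.03 (limma adjusted p = 0.000538) without ITD LSK replicate 1.

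FLT3-ITD is known to signal through STAT5, and the STAT motif TTCNNNGAA was found in 2 of the 11 promoter windows, those of Irf8 and Batf3, against 7.02% of all windows. Both genes are shown because they hold the motif and were called higher in ITD than in WT GMP, Batf3 after entering that test through the ITD libraries. Klf4 and Runx1, also called higher there, were searched and held no STAT match, and neither did the other Irf8 window. The Irf8 window, chr8:120736108-120736357 on the plus strand, holds the motif at 162 and at 144 bases before the start. The Batf3 stretch, chr1:191098165-191098193 on the plus strand, holds it at 230 bases before a start listed by RefSeq. That stretch lies inside the Batf3 gene as GENCODE maps it (chr1:191097847-191108945). Capitals mark the matches.
Irf8: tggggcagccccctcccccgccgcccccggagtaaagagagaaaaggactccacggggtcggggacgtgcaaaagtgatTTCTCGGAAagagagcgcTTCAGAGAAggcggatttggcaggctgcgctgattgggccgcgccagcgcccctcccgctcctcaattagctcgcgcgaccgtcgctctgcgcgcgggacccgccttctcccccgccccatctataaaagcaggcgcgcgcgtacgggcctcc
Batf3: gccacgtgacTTCCACGAAgagcgggggc
The IRF element, searched as a pair of GAAA with 2 bases between them, stood in 0 of the 11 windows and in 2.98% of all windows. No binding was measured, and a match describes the letters only.

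Klf4 (chr4:55527143-55532466, minus strand), a zinc finger factor of monocytes, was higher in ITD than in WT GMP. It had 8.52, 7.06 and 4.44 FPKM in IRE1_KO_ITD GMP, 5.65, 12.1 and 12.2 in ITD, 3.88, 5.87 and 7.14 in IRE1_KO, and 3.53, 4.03 and 3.26 in WT. ITD lay above WT without overlap, at 1.19 ± 0.30 (limma adjusted p = 0.0308). The call ended without ITD replicate 2 (0.0655) or 3 (0.0927) or any WT library (0.0633 to 0.112), and with sex in the fit (0.163). In LSK Klf4 had 0.733, 7.45 and 4.29 FPKM in IRE1_KO_ITD, 1.98, 7.09 and 7.39 in ITD, 3.54, 13.2 and 15.1 in IRE1_KO, and 4.96, 21.5 and 16.2 in WT. Replicate 1 was the lowest of its group in all 4 genotypes, and no LSK comparison was called, ITD against WT standing at -1.17 ± 0.72 (limma adjusted p = 0.266). The Flt3-ITD effect on Klf4 in GMP minus that in LSK was 2.36 ± 0.83 (limma adjusted p = 0.0658), and with the replicate number as a block it was called (0.0391).

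Replicate 1 was also the lowest LSK library for Fos, an immediate early gene picked after its values were seen. Fos had 357, 1817 and 1242 FPKM in IRE1_KO_ITD LSK, 339, 1985 and 1722 in ITD, 1046, 3014 and 3573 in IRE1_KO, and 981, 3044 and 3315 in WT, so replicate 1 was again lowest in 4 of 4 genotypes. Junb, Egr1 and Jun, picked the same way, gave 4 of 4 as well. Immediate early genes are known to respond to handling of cells, and the part of this in the Klf4 level was not tested. Over all 24 libraries, with the population mean removed, the genes most like Klf4 were Spry1, Zfp36 and Plk2 (Pearson r = 0.889, 0.853 and 0.843).

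Id2 (chr12:25093799-25097140, minus strand), the inhibitor of E proteins, had its highest mean in ITD in both populations. In LSK it had 36.1, 41.8 and 43.6 FPKM in IRE1_KO_ITD, 58.4, 102.6 and 127.9 in ITD, 24.3, 22.4 and 21.2 in IRE1_KO, and 19.4, 28.6 and 34.5 in WT. ITD lay above every other LSK library, and IRE1_KO_ITD lay above WT and IRE1_KO. ITD exceeded WT by 1.74 ± 0.26 (limma adjusted p = 0.00195), and IRE1_KO_ITD lay below ITD at -1.16 ± 0.26 (limma adjusted p = 0.0122); both calls held in each alternative, with sex in the fit included. IRE1_KO_ITD exceeded IRE1_KO by 0.81 ± 0.26 (limma adjusted p = 0.0368), a call that ended without any 1 of the 6 libraries compared (0.0603 to 0.101). In GMP Id2 had 25.8, 30.6 and 13.9 FPKM in IRE1_KO_ITD, 60.0, 98.0 and 110.1 in ITD, 53.6, 22.1 and 64.5 in IRE1_KO, and 48.6, 38.1 and 34.3 in WT. IRE1_KO_ITD lay below ITD and WT without overlap, and IRE1_KO replicate 3 lay above ITD replicate 1. IRE1_KO_ITD against ITD GMP was -1.91 ± 0.40 (limma adjusted p = 0.0432), a call that ended without any 1 of the 6 libraries but ITD GMP replicate 1 (0.0637 to 0.187) and with sex in the fit (0.22). ITD against WT GMP was 1.10 ± 0.40 (limma adjusted p = 0.1).

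Batf3 (chr1:191097847-191108945, plus strand), the defining factor of cDC1, was low outside ITD. In GMP it had 0.119, 1.62 and 0.518 FPKM in IRE1_KO_ITD, 5.06, 5.76 and 10.97 in ITD, 0.0619, 0.354 and 0.434 in IRE1_KO, and 0.0598, 0.449 and 0.450 in WT. All 3 ITD libraries lay above all others, with a mean 22.7 times that of WT. Since the ITD libraries carried it past the filter, the fit with no filter is given first: there ITD exceeded WT by 2.59 ± 0.34 on the log2(FPKM + 1) scale (limma adjusted p = 0.00381), and IRE1_KO_ITD lay below ITD at -2.26 ± 0.34 (limma adjusted p = 0.0201). With the filter the p-values were 0.00133 and 0.0116, and the second call ended without ITD GMP replicate 3 (0.0642), with sex in the fit (0.0827), or with a pseudocount of 0.1 (0.0611). It also ended with only the compared libraries in the fit (limma adjusted p = 0.147). IRE1_KO_ITD exceeded IRE1_KO by only 0.37, which was not called. In LSK it had 0.118, 0.0683 and 0.381 FPKM in IRE1_KO_ITD, 0.955, 7.45 and 11.6 in ITD, 0.348, 0.0517 and 0.679 in IRE1_KO, and 0.242 in WT replicate 2, and it was listed at 0 in WT replicates 1 and 3. ITD again lay above all others, and with the filter on low values removed the LSK difference was 2.46 ± 0.55 for ITD against WT (limma adjusted p = 0.0214) and -2.32 ± 0.55 for IRE1_KO_ITD against ITD (limma adjusted p = 0.0315).

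Some cDC1 markers were higher in ITD, as Batf3 was, and others were not. Clec9a, a cDC1 receptor for dead cells, had 0.222, 0.539 and 0.0780 FPKM in IRE1_KO_ITD GMP, 1.75, 1.99 and 2.56 in ITD, 0.127, 0 and 0.171 in IRE1_KO, and 0.211, 0.120 and 0.239 in WT. In LSK it had 0, 0.114 and 0.0101 FPKM in IRE1_KO_ITD, 0.586, 2.51 and 3.64 in ITD, 0.0540, 0.144 and 0.00972 in IRE1_KO, and 0.0338, 0.181 and 0.0225 in WT. ITD LSK replicate 1, low in Irf8, Id2 and Batf3 for its group, was also the lowest ITD library for Clec9a. Of 15 cDC1 genes on the list 10 were tested in GMP, but Clec9a, Snx22, Gcsam and Zbtb46 reached 1 FPKM there only in libraries with Flt3-ITD, so their tests are descriptions. Of the other 6, 3 rose and 0 fell in ITD against WT GMP, where 10.7% of all genes were called, and 0 were called in IRE1_KO_ITD against ITD GMP, where 1.83% were. The 4 genes carried by Flt3-ITD were all higher in ITD than in WT, Snx22 by 1.83 ± 0.17, Gcsam by 1.40 ± 0.18 and Clec9a by 1.38 ± 0.15. In IRE1_KO_ITD against ITD GMP 3 of the 4 were lower, Zbtb46, a factor of conventional dendritic cells, at -1.06 ± 0.16. In LSK 6 of 10 tested genes reached 1 FPKM in all 4 genotypes. Of these 6, 4 rose and 2 fell in ITD against WT, where 22.2% of all genes were called, with Flt3 itself among the 2 at -1.41 ± 0.09 (limma adjusted p = 1.29e-05), and 1 rose and 3 fell in IRE1_KO_ITD against ITD, where 20.2% were called.

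The summed level of the 15 cDC1 genes did not separate ITD from WT. In GMP it spanned 213 to 221 FPKM in IRE1_KO_ITD, 258 to 279 in ITD, 192 to 244 in IRE1_KO and 215 to 279 in WT, and 0 to 3 of its genes were at 0 in a library. Abundant members such as Flt3 weigh most in this sum, and whether cDC1-primed cells in the gate or RNA per cell underlie the Batf3 and Id2 values was not tested.

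**Figure D4:**
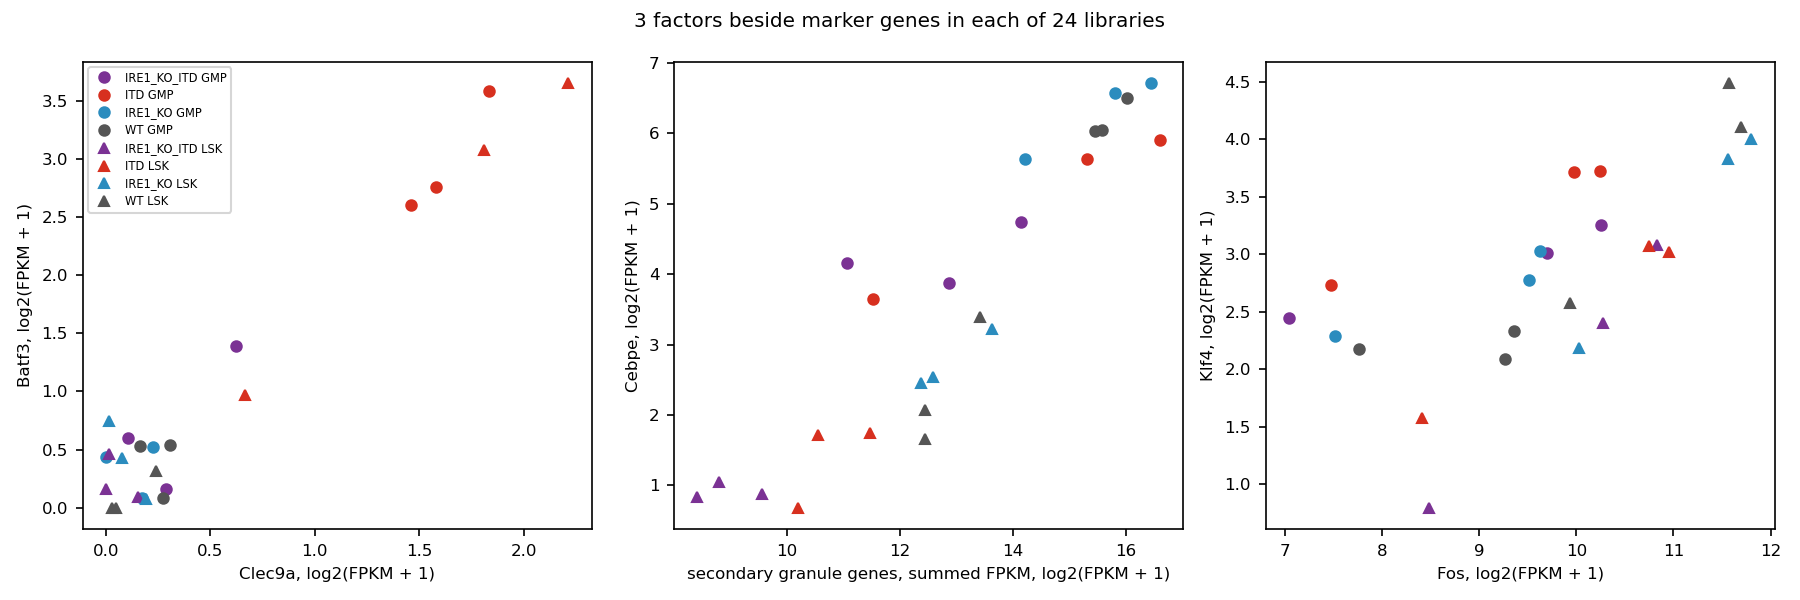
Levels as log2(FPKM + 1) in each of the 24 libraries of Batf3 against Clec9a, of Cebpe against the summed secondary granule genes, and of Klf4 against Fos, coloured by genotype with circles for GMP and triangles for LSK. The 6 ITD libraries hold the highest Clec9a levels and, but for LSK replicate 1 at 0.955 FPKM, the highest Batf3 levels, and Cebpe and the granule sum are both low in the IRE1_KO_ITD LSK libraries.

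Monocyte genes, associated with IRF8 and KLF4, were called in the same LSK comparisons as Id2. In ITD against WT LSK, where 22.2% of all genes were called and 14.9% were called higher, 6 of 17 rose and 0 fell, with Ccr2, the receptor that lets monocytes leave the marrow, at 2.41 ± 0.44 (limma adjusted p = 0.00492). In IRE1_KO_ITD against ITD LSK 11 of 17 fell and 0 rose, with a median of -1.58 beside 0.06 for all genes, of which 20.2% were called; the lysosomal protease gene Ctss fell by 2.04 ± 0.26 and the pore-forming gene Mpeg1 by 2.93 ± 0.40. Their summed level was 404, 697 and 666 FPKM in IRE1_KO_ITD LSK, 1010, 2427 and 2877 in ITD, 1092 to 1291 in IRE1_KO and 1127 to 1349 in WT, with ITD replicate 1 below WT. Csf1r, the monocyte growth factor receptor and a PU.1 target, was lower in IRE1_KO_ITD than in ITD LSK at -2.12 ± 0.45 (limma adjusted p = 0.0100), 1 of 3 receptors of 9 that fell there. In GMP 6 of 16 monocyte genes rose in ITD against WT, where 10.7% of all genes were called, Ctss by 1.58 ± 0.20 (limma adjusted p = 0.00149). In IRE1_KO_ITD against ITD GMP 0 of 16 were called, where only 1.83% of all genes were. Primary granule genes went the other way in ITD against WT GMP, where 9 of 14 fell and 0 rose against the same 10.7%, Prtn3 (proteinase 3) at -0.94 ± 0.11 (limma adjusted p = 0.000835).

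Genes around ID2 also changed. Of 12 plasmacytoid DC genes, a set that TCF4 drives, 11 were tested in LSK and 8 fell and 0 rose in ITD against WT, where 22.2% of all genes were called. Tcf4 itself fell by 0.45 there. Tcf3, the E protein E2A, was higher in IRE1_KO than in WT LSK at 1.58 ± 0.20 (limma adjusted p = 0.000186) and higher in IRE1_KO_ITD than in ITD LSK at 1.06 ± 0.20 (limma adjusted p = 0.00626). It had 63.0, 85.6 and 84.1 FPKM in IRE1_KO LSK, against 27.4, 26.2 and 21.7 FPKM in WT LSK, with no overlap. B cell genes, which should be scarce in both gates, fell in 11 of 11 tested in ITD against WT LSK, against the same 22.2%, Ms4a1 (CD20) at -2.38 ± 0.22 (limma adjusted p = 0.00023), and the part of this in the LSK levels was not tested.

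Likeness was measured by Pearson's r of log2(FPKM + 1) over the 24 libraries after the mean of each population was removed; the points share genotypes and library properties, so r is a description. Batf3 was most like Arhgap22, Clec9a and the MHC class II gene H2-Aa (r = 0.971, 0.970 and 0.968), and Id2 was most like Clec9a (0.817), P2ry6 (0.805) and Tlr3 (0.802). Batf3 and Clec9a were low outside ITD and passed the filter through the ITD libraries. The r between Batf3 and Clec9a therefore repeats the difference between ITD and the other groups. Cebpe went with Ceacam1 (0.962), Ltb4r1 (0.957) and Fcnb (0.955), genes of neutrophils. Irf8 went with I830077J02Rik (0.945), Gm6377 (0.905) and Traf1 (0.904), and Runx1 with Por (0.951), Zmiz1 (0.949) and Gab2 (0.948). Cebpb went with Ythdf1 (0.957), Gfi1 with 5730508B09Rik (0.945), Cebpa with Ccrn4l (0.930) and Spi1 with D1Ertd622e (0.881). Among the 45 pairs of members the highest r was 0.810 for Irf8 and Batf3, then 0.793 for Cebpa and Cebpb, 0.773 for Cebpb and Gfi1 and 0.760 for Id2 and Batf3, and the lowest was -0.632 for Cebpe and Runx1.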

How the data were processed

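The authors deposited 1 table of FPKM per library, with 1 row per gene symbol; per the submitters' processing notes STAR, Cufflinks and mm10 were used, with versions not given. The labels' protocol names SMART-Seq v4 with Nextera XT, and the series text names another kit, so strand use is unsettled. From these FPKM values log2(FPKM + 1) was computed here and fitted with limma 3.58.1 (R 4.3.3; lmFit, eBayes with trend, two-sided) over genes reaching 1 FPKM in 3 or more libraries: 11955 genes in the 12 LSK libraries, 11249 in the 12 GMP libraries and 12348 in all 24, the last for GMP against LSK. P-values were Benjamini-Hochberg adjusted, with calls under 0.05. The fit was tested on simulated data. FPKM holds no read totals, so depth could not enter the error, and no count test was run; an exact permutation test of 3 against 3 cannot go below 0.1. All 10 genes are named, with up to 3 called genes of smallest p per list and the 3 most alike genes. The members and the 15 gene lists (227 of 229 entries matched) were chosen with earlier results of these data known. Same-numbered GMP and LSK libraries deviated together in all 3 pairs of ITD (r = 0.198, 0.105 and 0.147). The same held in IRE1_KO (0.236, 0.0436 and 0.0850) and WT (0.135, 0.0502 and 0.0505), but not in IRE1_KO_ITD (-0.0629, -0.100 and 0.0218). In IRE1_KO_ITD replicate 2 was female in GMP and male in LSK, and replicate 3 was male in GMP and female in LSK. Libraries sharing either number there did not come from 1 mouse. With the replicate number as a block, no member's call changed in GMP against LSK for ITD. For WT the Runx1 call ended (limma adjusted p = 0.0596). In the ITD effect in GMP minus LSK, which uses the ITD and WT pairs, the block ended the Runx1 call (limma adjusted p = 0.0592) and called Klf4 (0.0391). Numbers were not taken as pairs in the main fits. Promoters and coordinates are from RefSeq (GRCm38.p6) and GENCODE vM21. Alternatives covered pseudocount, filter, scaling, block, sex, libraries in the fit and each library left out.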

Additional observations from a re-analysis of the deposited data

Results flagged for a closer look

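For 3 results the test of a difference between groups passed the threshold. In LSK the Flt3-ITD effect in cells labelled as lacking IRE1 minus that in cells with IRE1 was -2.20 for Cebpb (log2, limma adjusted p = 0.0251), from -2.40 ± 0.34 for IRE1_KO_ITD against IRE1_KO and -0.20 ± 0.34 for ITD against WT. For Gfi1 the same difference was -1.46 (limma adjusted p = 0.0346), from -1.92 ± 0.25 for IRE1_KO_ITD against IRE1_KO and -0.45 ± 0.25 for ITD against WT. Both rest on the 3 IRE1_KO LSK libraries with the 1ng tag, and without them the difference has no value. The Cebpb call ended in 8 of 18 alternatives and the Gfi1 call in 12 of 18. With sex in the fit the limma adjusted p was 0.142 for Cebpb and 0.169 for Gfi1. For Runx1 the ITD effect in GMP minus that in LSK was 0.94 (limma adjusted p = 0.0255), from 1.01 ± 0.20 in GMP and 0.07 ± 0.15 in LSK. The Runx1 call ended in 6 of 20 alternatives. Among them were the replicate number as a block (limma adjusted p = 0.0592) and only the compared libraries in the fit (0.0790).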

How the results depend on the processing

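Of 155 tested results on the 10 genes, 49 were called, of which 23 kept their call in every alternative and 26 lost it in at least 1. No called value changed sign, and of the 106 uncalled results 21 gained a call somewhere. Over all genes the share called ran from 0% to 50.8% by comparison. Kept and gained calls were not counted over all genes, so these counts do not set the 10 genes apart. In ITD against WT LSK 1 gene was called, and 2 without a filter. In IRE1_KO against WT LSK 4 were called, and 2 without a filter or with median-ratio scaling. The LSK difference between Flt3-ITD effects called 2, but 1 with a pseudocount of 0.1, quantile or median-ratio scaling, and 0 without a filter or with sex in the fit. ITD against WT GMP called 4, and 2 with sex or with only the compared libraries. IRE1_KO_ITD against ITD GMP called 2, but 0 with a pseudocount of 0.1, sex or only the compared libraries, and 1 without a filter. The ITD effect in GMP minus LSK called 1, and 0 with only the compared libraries. The cause was not tested in any of these.

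The replicate number as a block, with numbers not taken as pairs in the main fits, changed the count to 2 in ITD against WT LSK. The count went to 1 in IRE1_KO_ITD against ITD GMP. It went to 1 for the IRE1_KO effect in GMP minus LSK (main count 0), where the Gfi1 difference of -1.35 reached a limma adjusted p of 0.0155. That effect includes the IRE1_KO LSK libraries with the 1ng tag. The block called Klf4 in ITD against WT LSK (-1.17, limma adjusted p = 0.0037) and in IRE1_KO_ITD against IRE1_KO LSK (-1.25, limma adjusted p = 0.000953). It also ended the calls on Klf4 in ITD against WT GMP (0.0524), Id2 in IRE1_KO_ITD against ITD GMP (0.0935), Cebpe in IRE1_KO_ITD against IRE1_KO GMP (0.0577), Runx1 in GMP against LSK for WT (0.0596) and Runx1 for the ITD effect in GMP minus LSK (0.0592), and called Klf4 for that effect (0.0391). In GMP against LSK for IRE1_KO_ITD the block called Cebpb (limma adjusted p = 0.0407) and Gfi1 (0.0105). There the GMP and LSK libraries numbered 2 differ in sex, as do those numbered 3, so the block did not pair libraries of 1 mouse. Leaving out 1 library moved the counts to 1 to 2 in ITD against WT LSK, 2 to 3 in IRE1_KO against WT LSK, 1 to 4 in IRE1_KO_ITD against ITD LSK, 3 to 4 in IRE1_KO_ITD against IRE1_KO LSK, 0 to 5 for the LSK difference, 2 to 4 in ITD against WT GMP, 0 to 4 in IRE1_KO_ITD against ITD GMP, 3 to 6 in GMP against LSK for WT, 3 to 6 for IRE1_KO, and 0 to 2 for the ITD effect in GMP minus LSK.

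Counts over all genes that moved by more than 1.5 times were these. ITD against WT LSK called 2650, and 1384 with sex, 1689 with only the compared libraries and 1282 to 2599 without 1 library. The LSK difference called 830, and 529 with median-ratio scaling, 82 with sex and 343 to 1549 without 1 library. ITD against WT GMP called 1203, and 783 with the block, 271 with sex, 509 with only the compared libraries and 384 to 1609 without 1 library. IRE1_KO_ITD against ITD called 206 in GMP, and 130 with a pseudocount of 0.1, 62 with the block, 15 with sex, 12 with only the compared libraries and 13 to 759 without 1 library; in LSK it called 2418, and 1177 to 2342 without 1 library. IRE1_KO against WT GMP called 60, and 95 with median-ratio scaling, 35 with the block, 39 with sex and 27 to 45 without 1 library. IRE1_KO_ITD against IRE1_KO GMP called 1459, and 708 to 1176 without 1 library. The GMP difference called 0, and 3 without a filter and 0 to 91 without 1 library. With only the compared libraries, GMP against LSK in ITD went to 2582 from 5001 called, the ITD effect in GMP minus LSK to 908 from 1674 (791 to 1849 without 1 library) and the IRE1_KO effect to 1058 from 631 (252 to 609 without 1 library).

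Scaling moved the direction of calls. In IRE1_KO against WT LSK 88.5% of called genes were higher, against 55.4% after quantile and 64.2% after median-ratio scaling; in ITD against WT the shares were 67.2%, 52.7% and 45.8% in LSK and 68.9%, 50.5% and 55.9% in GMP, in IRE1_KO_ITD against IRE1_KO 37.4%, 51.9% and 42.1% in LSK and 65.3%, 55.6% and 51.5% in GMP, and for the LSK difference 19.6%, 38.8% and 40.6%. Median-ratio scaling moved IRE1_KO_ITD against ITD to 55.7% from 65.6% in LSK and to 33.2% from 50% in GMP, and the ITD effect in GMP minus LSK to 62.8% from 47.6%. For the IRE1_KO effect the shares were 19.3%, 43.9% and 38.9%. In GMP against LSK the 4 genotypes spanned 24.1% to 37.7%, and 46.6% to 52.5% after quantile scaling. Leaving out the 3 libraries with the 1ng tag, an alternative chosen after seeing the data, changed no count of called members in the 6 comparisons without them. Depth is unknown, so low levels such as Batf3 outside ITD have no counting error here.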
